A study of Glycine max with 36 samples.

Results

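The MYB33 genes Glyma.13G073400 and Glyma.15G225300 are 2 of 52872 annotated soybean genes whose small RNA hits were counted in 36 libraries. Both genes were selected on their hits in these same libraries, so their levels and strand shares are given as a description, with no test. The deposited annotation names each as myb domain protein 33 after its best Arabidopsis match and places them, by their identifiers, on chromosomes 13 and 15. Glyma.13G073400 is represented by its transcript model of lowest splice number, 1932 nucleotides long with 1575 of coding sequence. Glyma.15G225300 is represented by its only listed model, 3868 nucleotides long with 1602 of coding sequence.

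The series asks in which soybean tissues small RNAs of the chalcone synthase genes occur, and sequenced small RNA from total RNA of hand-dissected seed parts and of seedling and shoot tissues of greenhouse plants. The seed coats came from Williams (genotype i-i R T, yellow coat and black hilum; 3 immature libraries of 100 to 500 mg seeds and 1 dry mature), from its black-coated mutation Williams 44 (i R T, 1 library), from a Clark isoline carrying mi G, whose coat is defective and whose hilum is minute (i-i R t, called Clark mi below, 1 library), from Clark 63 (i-i R T, 1 library), from yellow Richland (I R t, 3 libraries of 5 to 6 mg seeds and 1 of 10 to 25 mg) and from imperfect black T157 (i R t, the same 3 and 1). Williams also gave 2 embryo axes, 1 dry and 1 immature cotyledon, 7 stages of seedling cotyledon and 1 leaf library of 10-day seedlings. Clark gave vegetative buds of 5- to 7-week plants, 1 cm tips of adult shoots and tips of 1-month plants, from five-foliate (Lf1), glabrous (P1) and standard isolines, all i-i R T, with no standard library at 1 month. Of these, standard adult tips had 2 libraries and the other isoline and tissue pairs had 1. The labels do not say whether libraries of a group came from separate plants, so p-values measure the spread between libraries, which may be technical. Where a group mixes seed weights or stages, that spread also holds differences of weight or stage.

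MYB33 and its close relative MYB65 are transcription factors of the GAMYB group, named for the cereal factor that switches on alpha-amylase genes in response to gibberellin in the aleurone. In Arabidopsis, microRNA miR159 pairs with a site in MYB33 and MYB65 transcripts and represses them in most tissues, and the factors act in anthers and seeds. A read complementary to a transcript is counted on its antisense strand, which holds for a microRNA aligned to its target as well as for small interfering RNAs copied from the complementary strand. The tables hold neither the sequence nor the length of a read, so which kind of small RNA gave the hits below was not tested.

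Libraries held 9.50 to 58.5 M reads (M, 1000000 reads; median 20.4). Stage 2 of the seedling cotyledon gave 0.965 M hits, on 1122 genes, against 5.74 to 85.3 M hits on 18760 to 34200 genes in the others. That library stands apart from the other stages, and results that use it are given with and without it. Levels are hits per 1000000 reads of the library (RPM), and 3 hits correspond to 0.0513 to 0.316 RPM. Intervals on shares cover counting error only, since reads without molecular identifiers are not independent molecules. Summed hits on 150 genes described as photosystem, light-harvesting or Rubisco components were 2195 RPM in the leaf library and 239.8 to 270.3 RPM in the embryo axes, while 390 genes of seed storage, oleosin and late embryogenesis proteins had 275 RPM in leaf and 394 to 411 RPM in the axes. The photosystem, light-harvesting and Rubisco genes were also high outside leaf and shoot. They reached 1486 RPM in a Williams immature coat and 860 RPM in the immature cotyledon, against 438 to 778 RPM in Clark adult tips. The seed genes did not mark seed tissue alone, reaching 584 RPM in a Clark adult tip, 650.0 RPM in the dry coat and 1314 RPM in Williams 44. The words searched for seed coat genes matched none. These are small RNA hits and not expression.

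Nearly all hits on both genes were antisense. Glyma.13G073400 had 372221 antisense and 7621 sense hits over the 36 libraries, so that 98.0% were antisense. Glyma.15G225300 had 372149 antisense and 320 sense hits, 99.9% antisense. Over all genes the antisense strand did not dominate to that degree, the sense share of a library's gene hits being 23.9 to 42.6% (median 32.8). Mean levels were 397 RPM for Glyma.13G073400 and 389 RPM for Glyma.15G225300, above 99.8% of genes in each case. Unique hits, as the authors counted them, equalled total hits for both genes in all 36 libraries.

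The 2 genes had nearly the same antisense counts in every library, and a further gene had them too. Antisense counts were equal in 31 of 36 libraries and differed in 5, by 47 hits in the dry seed coat (31814 on Glyma.13G073400 and 31767 on Glyma.15G225300), by 21 in the Williams seed coat of 200 to 300 mg, by 2 in Williams 44 and by 1 each in the immature cotyledon and the younger embryo axis. Glyma.20G047600, also described as MYB33, held 372149 antisense hits, as Glyma.15G225300 did. Among all 52872 genes, only these 3 had antisense counts that matched those of Glyma.15G225300 within 5% or 3 hits in every library. The unique hits therefore do not tell the genes apart, and their antisense values are 1 measurement printed on several genes, not separate evidence. Reads were not followed between genes, so the share that belongs to each is uncertain.

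The sense hits told Glyma.15G225300 apart from Glyma.13G073400, but hardly told Glyma.13G073400 from Glyma.20G047600. Sense levels given for Glyma.13G073400 here and below thus cannot be assigned to it alone. Glyma.13G073400 had sense hits in 35 libraries, all but stage 2, and Glyma.15G225300 in 16. Per kb of transcript, mean sense levels were 4.17 RPM for Glyma.13G073400 and 0.0797 RPM for Glyma.15G225300. The sense hits of Glyma.13G073400 equalled those of Glyma.20G047600 in 28 libraries and fell short of them by 52 hits in all in the other 8. Of these 52 hits, 51 were matched in library and number by a longer splice model of Glyma.13G073400 (2452 nucleotides), which had 2, 6 and 5 more sense hits than the shorter model in Richland coats of 5 to 6 mg, 5, 11 and 21 more in T157 coats of 5 to 6 mg and 1 more in the T157 coat of 10 to 25 mg. The remaining listed models of Glyma.13G073400, of 1999 and 1976 nucleotides, had the same hits as the model used. The longer model thus had extra sense hits in the 6 youngest coats and in 1 older coat, and none in the other 29 libraries.

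**Figure D1:**
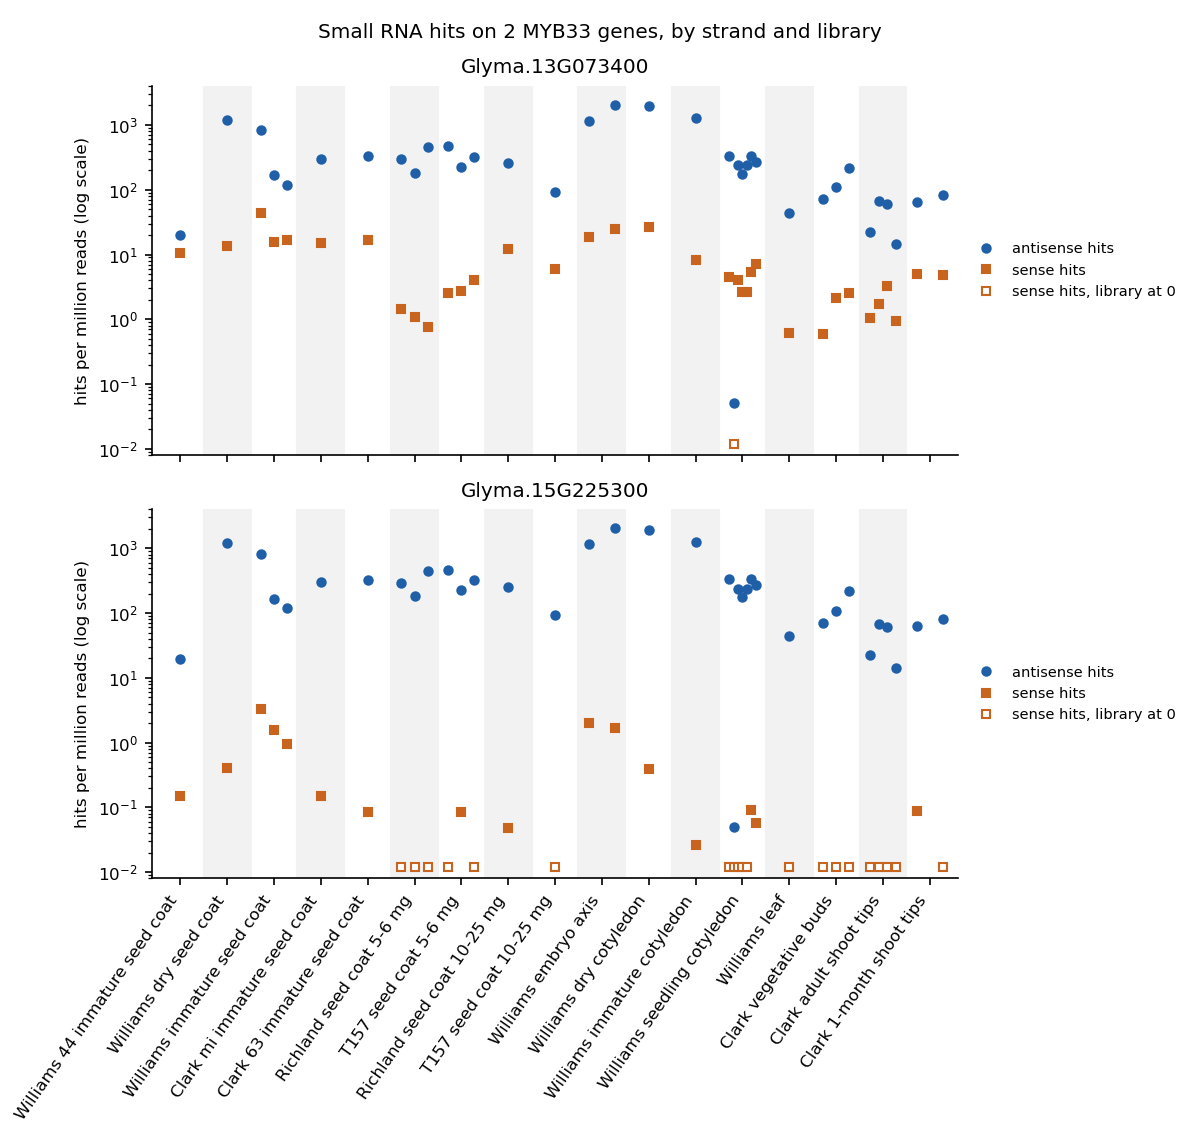
Antisense (circles) and sense (squares) hits, in RPM, on Glyma.13G073400 (top) and Glyma.15G225300 (bottom), on a log axis, 1 point per library, by tissue; open squares at the foot of the axis are libraries with 0 sense hits. Antisense levels look alike in both panels, from 2035 RPM in an embryo axis to 0.0501 RPM in the stage 2 cotyledon, whereas sense hits are at 0 in 1 library for Glyma.13G073400 and in 20 for Glyma.15G225300.

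Total levels were highest in the embryo axes, the seed cotyledons and the dry seed coat, and lowest in adult shoot tips, leaf and Williams 44. Glyma.13G073400 had 1184 and 2060 RPM in the embryo axes of 200 to 300 mg and 300 to 400 mg seeds, 1979 RPM in the dry cotyledon, 1276 RPM in the immature cotyledon and 1205 RPM in the dry seed coat. With library reads as the scale, every other library was below these 5. Scaled by a library's summed gene hits, the order changed. The highest Richland and T157 coats of 5 to 6 mg then had 832 and 795 hits per M gene hits. Both lay above the immature cotyledon (781) and the lower embryo axis (769). The Richland coat also lay above the dry coat (797). The dry cotyledon (1102) and the higher axis (1414) stayed above both. Fewer cells of a type and less RNA per cell cannot be told apart in such bulk samples.

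Immature seed coats spread over a wide range. Williams coats had 868, 184 and 136.8 RPM at 100 to 200, 200 to 300 and 400 to 500 mg, so the lightest seeds had the highest level of the 3 weights. Clark mi had 315 RPM and Clark 63 had 344 RPM at 50 to 100 mg. Coats of 10 to 25 mg had 267 RPM in Richland and 99.9 RPM in T157. Williams 44, black-coated and 50 to 75 mg, had 30.4 RPM, below each of the other 13 immature coats. No other library shares its genotype, so its level has no replicate. The same library had the highest summed level of the seed storage, oleosin and late embryogenesis genes, 1314 RPM against 144.5 to 568.01 RPM in the other immature coats, and whether that bears on its MYB33 level was not tested.

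Seedling cotyledons had 0.0501 to 343 RPM with a median of 242 (n = 7), and 178 to 343 RPM without stage 2 (mean 270.1 ± 63.8, SD, n = 6). They lay below the dry and immature seed cotyledons, at 1979 and 1276 RPM. Stage 2 held a single hit, under the limit of 3 hits at 0.1503 RPM. The leaf had 44.6 RPM. Buds had 71.9 to 218 RPM, 1-month tips 69.2 and 86.9 RPM, and adult tips 15.3 to 68.9 RPM.

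In the order of tissue means, dry cotyledon (1979 RPM), embryo axis (1622 RPM) and immature cotyledon (1276 RPM) came first, but the axes' own range of 1184 to 2060 RPM takes in both cotyledon values. The dry coat (1205 RPM) lay within the range of the axes too. The ranges of the next tissues overlapped from one to the next, from Williams immature coats (mean 396 RPM, 136.8 to 868) down to the T157 coat of 10 to 25 mg (99.9 RPM). The 3 lowest, leaf (44.6 RPM), adult tips (mean 42.7 RPM) and Williams 44 (30.4 RPM), were not separated beyond the range of the tips. The highest tissue mean was 65.03 times the lowest. Glyma.15G225300 gave nearly the same levels, from 2037 RPM in the older embryo axis to 19.99 RPM in Williams 44, with a median of 231 RPM against 234 RPM for Glyma.13G073400.

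Sense hits of Glyma.13G073400 followed another order. Williams immature coats had 43.2, 15.8 and 17.01 RPM of sense hits with rising weight, next to the dry cotyledon at 26.6 RPM and the embryo axes at 18.8 and 24.6 RPM. Clark mi and Clark 63 coats had 14.8 and 17.02 RPM, and the dry coat 13.7 RPM. The 5 to 6 mg coats were low, at 1.42, 1.10 and 0.754 RPM in Richland and 2.58, 2.69 and 4.02 RPM in T157, whereas the 10 to 25 mg coats had 12.2 RPM in Richland and 5.93 RPM in T157. In RPM, every sense value at 5 to 6 mg lay below every sense value of the 9 heavier or dry coats. With summed gene hits as the scale, this separation was not complete. A T157 library of 5 to 6 mg, with 52 sense among 4174 hits, had a total of 453 per M gene hits. Williams 44, with 280 sense among 810 hits, had a total of 14.8. On that scale the sense level of Williams 44 lay below that of the T157 library. At 5 to 6 mg a Richland library had at most 17 sense hits and a T157 library at least 32. How many of all genes separate these groups in the same way was not counted, so nothing is concluded from the gap. The rule used these hits, so no test is given.

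The sense share of Glyma.13G073400 was largest in Williams 44. Its 280 sense and 530 antisense hits gave 34.6% (95% Wilson interval 31.4 to 37.9), although its sense level of 10.5 RPM lay among those of other coats. The 3 Williams immature coats had 4.97, 8.60 and 12.4% with rising weight (intervals for counting error 4.66 to 5.31, 8.05 to 9.18 and 10.9 to 14.2). Each weight had a single library, so the spread between libraries of a weight is not known. Shares in the 5 to 6 mg coats were 0.166 to 0.599% in Richland and 0.544 to 1.25% in T157. Seedling cotyledons other than stage 2 had 1.11 to 2.58%, buds 0.837 to 1.92%, adult tips 2.47 to 6.10% and 1-month tips 5.60 and 7.30%. Mean sense levels were 1.75 RPM in buds and 1.73 RPM in adult tips, and mean antisense levels were 132 RPM in buds and 41.0 RPM in tips.

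Sense hits of Glyma.15G225300 were few and sat in the seed. Williams immature coats had 66, 79 and 11 of them with rising weight, the embryo axes 87 and 35 in the lighter and the heavier seeds, the dry cotyledon 14 and the dry coat 11. No other library had more than 4. The axes and the Williams immature coats thus held 278 of the 320. A count of 0 allows up to 3 hits, or 0.0513 to 0.316 RPM depending on the library, so low sense levels in shoot libraries were not detectable at this depth.

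**Figure D2:**
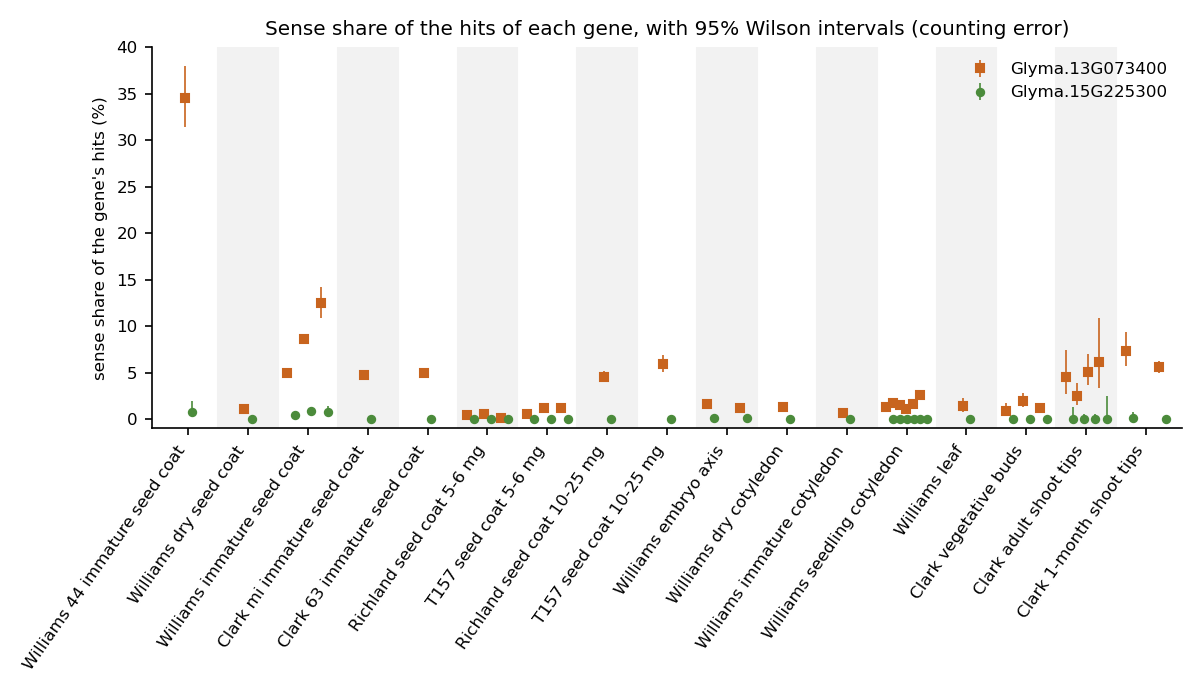
Sense share of the hits of Glyma.13G073400 (squares) and Glyma.15G225300 (circles) in percent, 1 point per library by tissue, with 95% Wilson intervals for counting error; stage 2 of the seedling cotyledon, with 1 hit, is left out. Williams 44 stands at 34.6% for Glyma.13G073400, the Williams immature coats at 4.97 to 12.4%, and Glyma.15G225300 stays below 1% in all 35 libraries shown.

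The other MYB33 and MYB65 genes also had almost only antisense hits, at other levels. Glyma.04G125700 (MYB33) and Glyma.06G312900 (MYB65) each had 2699660 hits, of which 30 and 16 were sense, and they share their hits as the 3 genes above do. Their mean level was 2552 RPM, with 21067 RPM in the immature cotyledon. Glyma.13G187500 (MYB33) had 563200 hits, 95 of them sense, and a mean of 599.9 RPM. The MYB101-like Glyma.18G095600 had 1769 hits and a mean of 1.76 RPM, and 6 further GAMYB relatives (MYB97, MYB101 and MYB120) had means of 0.00450 to 0.597 RPM.

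Ratios of antisense hits within a library do not depend on its depth. Per kb of transcript, Glyma.04G125700 had more than Glyma.13G073400 in 31 of the 35 libraries with more than 3 hits, and fewer in 4, all seed coats. In hits not divided by length it had fewer in 2 libraries. Whether a ratio lies above 1 thus depends on the model length. The model of Glyma.13G073400 has 1932 nucleotides, whereas Glyma.15G225300 holds nearly the same antisense hits on 3868. The ratio of Glyma.04G125700 to Glyma.13G073400 was 0.561 to 7.84 in the 15 seed coats (median 1.43) and 3.44 to 28.7 in the other 20 libraries (median 8.57). Coats of 5 to 6 mg had ratios of 1.43 to 1.79 in Richland and 0.825 to 1.38 in T157, while coats of 10 to 25 mg had 7.14 in Richland and 7.84 in T157. Buds had 6.50, 7.37 and 8.22, and adult tips 16.6, 16.99, 20.3 and 28.7. The immature cotyledon had 13.5, the dry cotyledon 7.29 and the embryo axes 3.68 and 3.44. These ratios contain the levels used to choose the genes and are not tested.

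Glyma.13G187500 held at least as many antisense hits as Glyma.13G073400 in all 36 libraries. Its ratio to Glyma.13G073400 was 0.572 to 0.620 per kb in the 6 coats of 5 to 6 mg, and in the 6 seedling cotyledons other than stage 2 it was 0.679 to 0.792. Embryo axes, dry cotyledon and immature cotyledon gave 0.669 to 0.725. It was 0.949 to 1.38 in buds and 2.37 to 6.22 in adult tips. Williams 44 was far from the rest at 32.4, with 31080 antisense hits on Glyma.13G187500 and 530 on Glyma.13G073400. In that library Glyma.13G187500 had 1168 RPM, within the range of the Williams immature and dry coats (350 to 1407 RPM), and Glyma.04G125700 had 23.0 RPM, below all 14 other coats.

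**Figure D3:**
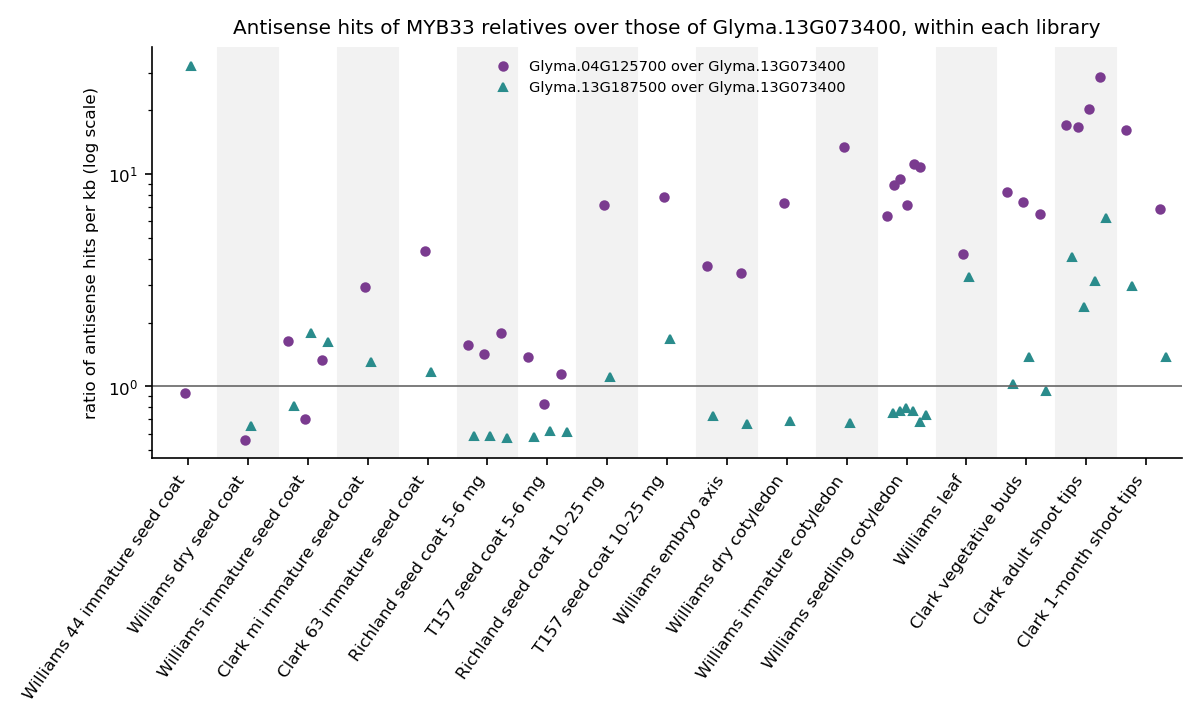
Antisense hits per kb of Glyma.04G125700 (circles) and Glyma.13G187500 (triangles) divided by those of Glyma.13G073400 in the same library, on a log axis, 1 point per library by tissue; the line marks a ratio of 1, and stage 2 is left out. The circles lie at 16.6 to 28.7 in adult tips, above the 6.50 to 8.22 of buds, and the triangles reach 32.4 in Williams 44.

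Over all genes, 6 comparisons were fitted on summed sense and antisense hits with edgeR's quasi-likelihood test, and a gene was called at a Benjamini-Hochberg adjusted p under 0.05. For Glyma.13G073400, Glyma.15G225300 and Glyma.20G047600 the fitted log2 fold and its standard error are given as a description, without p, because the genes were chosen on these hits.

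Richland, with the dominant I allele, and T157, with recessive i, had overlapping levels of the MYB33 genes in coats of 5 to 6 mg. Glyma.13G073400 had 295, 183 and 454 RPM in Richland and 473, 227 and 323 RPM in T157. Neither group lay above the other. The log2 fold was 0.06 ± 0.39 (SE, n = 3 each), and for Glyma.15G225300 it was 0.07 ± 0.39. With library reads as the scale, both folds took the other sign, at -0.14 and -0.13. Of the 10761 genes tested, 0.65% were called higher and 0.474% lower in Richland (70 and 51 genes; 47 and 74 with library reads as the scale). Glyma.04G125700 had a log2 fold of 0.49 ± 0.42 (edgeR adjusted p = 0.952) and Glyma.13G187500 of 0.03 ± 0.39 (adjusted p = 0.991).

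Williams immature seed coats and seedling cotyledons differed in the most abundant MYB33 relatives. The 3 coats were of different seed weights and the 7 cotyledons of different stages. Standard errors and p-values of this comparison thus include differences of weight and stage. Glyma.04G125700 had 1670.0, 146 and 197 RPM in the coats, against 0.301 to 4646 RPM (median 2613, n = 7) in the cotyledons, with stage 2 the lowest. Without stage 2 the cotyledons had 2059.8 RPM or more, above all 3 coats. Glyma.04G125700 and Glyma.06G312900 fell in the coats, each with a log2 fold of -3.56 ± 1.28 (edgeR adjusted p = 0.0256). Without stage 2 the fold of Glyma.04G125700 was -3.67 ± 0.67 (adjusted p = 0.000641). The call was lost without the coat of 400 to 500 mg (-3.12) or of 200 to 300 mg (-3.001), with no filter on low counts (-3.35), with no TMM factors (-2.54) and with library reads as the scale (-1.91); over all alternatives the adjusted p was 0.000641 to 0.289.

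Glyma.13G073400 in the same comparison had 868, 184 and 136.8 RPM in the coats, against 0.0501 to 343 RPM in the cotyledons, and the groups overlapped. Its log2 fold was -0.83 ± 1.09 (SE, n = 3 and 7), or -0.94 ± 0.43 without stage 2. Glyma.15G225300 had -0.91 ± 1.09, or -1.02 ± 0.44 without stage 2. Both took the other sign when hits were scaled without TMM factors (0.09 and 0.02) or by library reads (0.78 and 0.71), as those scalings moved the median of all genes to 0.80 and 1.61, against 0.02 with TMM. Among relatives, Glyma.13G187500 had -0.29 ± 1.04 (adjusted p = 0.832), the MYB101-like Glyma.18G095600 fell by 2.80 ± 0.75 on the log2 scale (adjusted p = 0.00389) and the MYB120-like Glyma.14G039200 rose by 2.12 ± 0.63 (adjusted p = 0.00848). The call of Glyma.18G095600 was lost with library reads as the scale (-1.15). In this comparison 24.5% of the 16669 genes tested were called higher and 23% lower. Among the 5 relatives tested, Glyma.20G047600 left out, 1 was higher and 3 were lower. Those 3 include the pair that fell in the preceding paragraph, whose members share their hits and count as 1 measurement. The 3 lower relatives are thus fewer separate measurements than genes, which limits a reading against the share of all genes. The split over all genes moved with the scale, to 6384 higher and 2707 lower without TMM factors and 6348 and 884 with library reads, against 4078 and 3830 with TMM.

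Across the 7 seedling stages, from imbibed yellow seed to fully green cotyledon, levels of the MYB33 genes had no steady direction. Total levels of Glyma.13G073400 from stage 1 to stage 7 were 340.1, 0.0501, 242, 178, 239.8, 343 and 278 RPM. Sense levels were 4.54, 0, 4.09, 2.62, 2.65, 5.43 and 7.16 RPM, with the highest at stage 7. The fitted slope was 0.05 ± 0.32 log2 units per stage for Glyma.13G073400 and 0.04 ± 0.32 for Glyma.15G225300, and without stage 2 it was -0.06 ± 0.07 and -0.07 ± 0.07. Of 12422 genes tested, 2.9% were called with a rising and 0.612% with a falling trend, and without stage 2 none was called, with 2981 genes at an unadjusted p under 0.05. Glyma.04G125700 had a slope of 0.17 ± 0.24 (edgeR adjusted p = 0.979).

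Vegetative buds had more hits on the MYB33 genes than adult shoot tips. Glyma.13G073400 had 71.9, 111 and 218 RPM in five-foliate, glabrous and standard buds, against 23.2 RPM in five-foliate tips, 68.9 RPM in glabrous tips and 63.5 and 15.3 RPM in standard tips. The lowest bud library (71.9 RPM) lay just above the highest tip library (68.9 RPM), and each isoline's buds lay above its tips. How many of all genes separate buds from tips in this way was not counted, so the gap is given as a description only. Fitted over 9 Clark libraries, with terms for tissue and for isoline, the log2 fold was 2.20 ± 0.32 for Glyma.13G073400 and 2.25 ± 0.33 for Glyma.15G225300. Both folds rest on nearly the same antisense hits and count as 1 measurement. They exceed 97.8% and 98.0% of the 14015 genes tested, a rank that describes genes chosen on these hits and is no test. Of all genes tested, 2.19% were called higher and 0.271% lower in buds, and the median fold was -0.14. The split of 307 higher and 38 lower was 482 and 140 with DESeq2 and 5 and 2 with library reads as the scale. Over the other scalings, filters and left-out libraries the fold of Glyma.13G073400 was 1.69 to 2.77. Sense levels overlapped, at 0.602 to 2.53 RPM in buds and 0.935 to 3.23 RPM in tips. Glyma.20G047600, which holds the same hits, had a log2 fold of 2.20.

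Between buds and tips the 4 relatives tested that do not share these hits did not pass the threshold. Glyma.04G125700 had 723, 989 and 1731 RPM in five-foliate, glabrous and standard buds, against 465 RPM in five-foliate, 1375 RPM in glabrous and 1512 and 509.6 RPM in standard tips, and the groups overlapped. Its log2 fold was 0.77 ± 0.30 (edgeR adjusted p = 0.242), that of Glyma.13G187500 0.49 ± 0.24 (adjusted p = 0.387) and that of Glyma.18G095600 0.89 ± 0.59 (adjusted p = 0.584). Whether these folds differ from those of the MYB33 genes was not tested. Summed hits on the photosystem, light-harvesting and Rubisco genes were 559 to 2377 RPM in buds and 438 to 778 RPM in tips, and their part in the difference was not tested.

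Levels of the MYB33 genes overlapped between the leaf-shape and hair isolines and standard Clark. Glyma.13G073400 had 71.9 RPM in five-foliate buds, 23.2 RPM in adult tips and 69.2 RPM in 1-month tips, against 218 RPM in standard buds and 63.5 and 15.3 RPM in standard tips. The five-foliate over standard log2 fold was -0.41 ± 0.36 for Glyma.13G073400 and -0.40 ± 0.37 for Glyma.15G225300. Glabrous libraries had 111 RPM in buds, 68.9 RPM in adult tips and 86.9 RPM in 1-month tips, and their log2 fold over standard was 0.06 ± 0.37 and 0.09 ± 0.37; library reads as the scale gave -0.06 and -0.03. Both comparisons share the standard libraries. In each, edgeR called 0% of the 14015 genes higher and 0% lower, with 845 and 2404 genes at an unadjusted p under 0.05, and DESeq2 called 3 and 16.

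**Figure D4:**
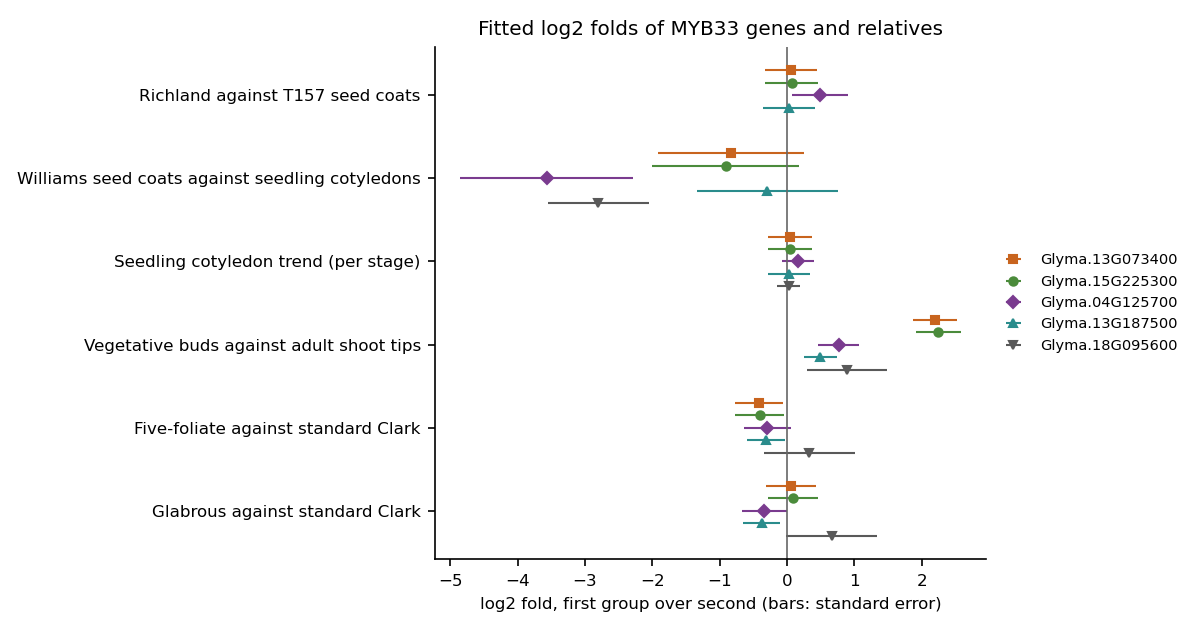
Fitted log2 folds (first group over second; for the trend, slope per stage) of Glyma.13G073400, Glyma.15G225300 and 3 relatives in 6 comparisons, with standard errors as bars. The MYB33 genes stand at 2.20 and 2.25 in buds against adult tips, and Glyma.04G125700 at -3.56 in Williams coats against seedling cotyledons. Glyma.18G095600 was not among the genes tested in Richland against T157.

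Genes of the pathways around MYB33 were counted by words in their descriptions. Of 78 gibberellin genes, 66 had a hit, and of the 21 tested between Williams coats and seedling cotyledons 6 rose, 5 fell and 10 were not called (median log2 fold 0.62). Those that rose included gibberellin 2-oxidases, which inactivate the hormone, Glyma.13G259500 (6.70 ± 0.81, edgeR adjusted p = 3.61e-06) and Glyma.15G252100 (5.51 ± 0.74, adjusted p = 7.63e-06), both with mostly sense hits. Of 45 TCP factors, some of which are targets of the related miR319, 18 were tested, 7 rose and 4 fell (median 1.38). The TCP5-like Glyma.05G019900 (3.39 ± 0.55, adjusted p = 5.05e-05) and Glyma.17G079900 (3.42 ± 0.56, adjusted p = 5.86e-05) rose, with 3182 and 3231 antisense hits over all libraries. These hits do not mark either gene as a miR319 target, which was not tested.

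Of 28 genes of the microRNA machinery, 16 were tested in that comparison, 3 rose and 0 fell (median -0.60), and without stage 2 they were 4 and 3. The Argonaute gene Glyma.02G111600 rose by 6.92 ± 0.80 (edgeR adjusted p = 2.73e-06) and the Dicer-like 4 gene Glyma.17G104100 by 5.39 ± 0.86 (adjusted p = 4.03e-05). Of 9 alpha-amylase genes, 3 were tested and Glyma.17G242400 fell by 3.80 ± 0.86 (adjusted p = 0.000995), a call lost with library reads as the scale (-2.46). These counts stand beside 24.5% of all genes called higher and 23% lower, and the median fold of all genes was 0.02. In the seedling trend 1 of 13 gibberellin genes rose, the gibberellin-regulated Glyma.17G237100 (1.10 ± 0.31 per stage, adjusted p = 0.0213), which was not called without stage 1 (0.56), stage 2 (1.04) or stage 3 (0.91), with no filter on low counts (1.22) or with library reads as the scale (1.66). Of the 37 genes of these 4 lists tested in the trend, edgeR called 1 and DESeq2 called 7. In the remaining comparisons edgeR called 0 genes of the 4 lists together, as did DESeq2. There 53 genes of the lists were tested in Richland against T157, and 7 of them had an unadjusted p under 0.05, as did 8.16% of all genes tested. Of 51 tested in the Clark libraries, 2 had such a p in buds against tips (14.3% of all genes), 4 in five-foliate (6.03%) and 17 in glabrous against standard (17.2%).

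Over the 36 libraries the gene most like both was Glyma.20G047600, which holds the same hits, with a Pearson correlation of log2(RPM + 1) of 1.00 with Glyma.13G073400 and 0.999 with Glyma.15G225300. It was followed for both by 4 genes described as disease resistance proteins of the TIR-NBS-LRR class, Glyma.16G214669 (0.948 with Glyma.13G073400 and 0.945 with Glyma.15G225300), Glyma.16G213800 (0.939 and 0.936), Glyma.16G215000 (0.937 and 0.931) and Glyma.16G214585 (0.936 and 0.933). Unlike the MYB33 genes, these had many sense hits, as Glyma.16G214669 with 19842 sense and 76768 antisense. Of 12145 genes with a mean of at least 1 RPM compared, all share library depth, and the stage 2 library is low for each. Spearman correlation kept 2 of the 5 for Glyma.13G073400 and 1 of the 5 for Glyma.15G225300, and leaving out stage 2 kept 4 of 5 for each. The MYB33 relatives Glyma.13G187500 and Glyma.04G125700 had correlations of 0.844 and 0.780 with Glyma.13G073400.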

How the data were processed

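The members and gene lists were chosen with earlier results of these data known. The deposited strand table holds raw counts of hits per transcript model, total and unique on each strand, per the file headers; the authors' reads per library come from their chalcone synthase RPM table, whose other values were not used. Per the submitters' processing notes, Bowtie 1 made the alignments. How a hit counts as unique, the mismatches allowed and the read sizes kept are not given in sources used here. Libraries were prepared with either of 2 kits and sequencers, per the labels, without saying which, so no batch was fitted. Positive-strand hits were read as sense to the transcript model, which the header does not spell out.

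Each gene is its lowest splice model. Sense and antisense hits were summed and fitted with edgeR 4.0.16 in R 4.3.3, with DESeq2 1.42.0 as an alternative. Settings were TMM, filterByExpr with a minimum count of 10 and total of 15, and the quasi-likelihood F test (standard error = fold over the root of F). The fit was tried on simulated data for Richland against T157, Williams coats against cotyledons and the trend, the last with equal library sizes. The Clark design was not simulated. Isoline and tissue were terms over 9 Clark libraries. Likeness used Python 3.11.15 with a pseudocount of 1. Named were the 2 genes, relatives of at least 1 RPM, the 5 genes most like each, and the 2 called genes of smallest p per list; Glyma.14G039200 was named after its value was seen. No genome was used.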

Additional observations from a re-analysis of the deposited data

How the results depend on the processing

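All alternatives were listed with earlier results of these data known. Of 806 recomputed values, 748 were labelled unchanged, by rules that differed with the kind of value. Counts had to stay within a fixed factor, and relatives on the same side of the threshold, whatever their sign if not called. Folds and levels of the MYB33 genes had to move by less than the spread between libraries. For Glyma.13G073400 that spread was 2.97 log2 units in Williams coats against cotyledons and 3.52 in the seedling trend, with stage 2 included. A change of sign there counted as unchanged, so the label says little for those fits. The MYB33 genes had no test; their folds in buds against adult tips were above 0 under every scaling, filter and left-out library tried. In glabrous over standard, leaving out a library gave -0.41 to 0.67 for Glyma.13G073400 and -0.40 to 0.71 for Glyma.15G225300, the highest without glabrous buds and the lowest without glabrous adult tips. Leaving out a library gave folds of -0.24 to 0.61 (Glyma.13G073400, Richland against T157), and -1.55 to -0.43 (Williams coats against seedling cotyledons).

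Counts of called genes depended on the setting, and the cause was not tested. Williams coats against cotyledons gave 12812 calls with no filter, which tests more genes, against 7908. The seedling trend gave 436, but 0 with library reads as the scale, 1461 with DESeq2 and 0 (without stage 2) to 560 without a library; it gave 84, 54 and 208 without stages 1, 3 and 6. Buds against tips gave 345, but 154 with no TMM factors, 7 with library reads, 606 with no filter, 622 with DESeq2 and 7 to 466 without a library, the lowest without five-foliate buds or five-foliate adult tips. Five-foliate against standard gave 0, but 44 with no filter, 3 with DESeq2, 6 with unique hits and 0 to 5 without a library. Glabrous against standard gave 0, but 20, 16, 12 and 0 to 4 under the same settings. Library reads as the scale moved the median log2 fold of all genes to 1.61 (Williams) and -0.51 (buds).

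With the replicate number as a block, Richland against T157 gave 68 genes higher and 33 lower, against 70 and 51 without it, and a fold of 0.18 for Glyma.13G073400; same-numbered libraries had correlations of -0.21, -0.14 and -0.16 of their deviations, so the numbers do not pair the libraries. With 1 to 3 libraries in most groups and stage confounded with library, small differences were not detectable.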
